A study of Homo sapiens with 60 samples.

Results

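A549 cells given an ethanol extract of Poria at 500 µg/mL were compared with A549 cells given the same extract at 20 µg/mL. The comparison rests on 6 of the 60 libraries of the series, 3 at each dose, chosen by the extract and the dose in their labels. A549 is a line of human lung carcinoma cells that grow attached in culture, and Poria (Poria Cocos in the labels) is the dried fungal body of a wood-decay fungus used in East Asian herbal medicine. The extract was made with 70% ethanol, and messenger RNA was sequenced 24 h after treatment. Beside the 500 and 20 µg/mL groups stand Poria at 100 µg/mL and a DMSO vehicle (n = 3 each), and, for comparison of the dose change, the ethanol extracts of Atractylodis Rhizoma (Atractylodis) and Panax Ginseng (Ginseng) and the water extract of the multi-herb formula Sibjeondaebo-tang at 500 and 20 µg/mL (n = 3 per dose). The labels give the vehicle as 0.1% DMSO and the design text as 2%, and they do not say whether the extract-treated cells also received DMSO. The design text further allows lower doses, set by an inhibitory concentration, for extracts that slowed growth below 500 µg/mL, so the doses used here are those of the labels. Nothing in the labels states that replicates were separate cultures, so each p-value speaks only of the variation among libraries, which may be technical. The spread behind it came from a model of all 60 libraries of the series, unless a fit is said to use fewer.

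All groups shared the cell line, the medium (RPMI with serum), the treatment time and, apart from Sibjeondaebo-tang and the vehicle, the type of extract. Library totals were 22216844 to 24188521 counts at 500 µg/mL and 24062047 to 26005076 counts at 20 µg/mL. Of the A549 identity list, CDKN2A, which is deleted in this line, was at 0 in all Poria and vehicle libraries, and the other 15 of 16 members were tested, with a median log2 change of 0.00 between 500 and 20 µg/mL. One library stood apart. The 20 µg/mL replicate 3 had 28101 genes above 0, against 22439 to 23096 in the other Poria libraries, and 3522 of them were seen in at most 3 other libraries of the series, at a mean of 1.43 counts and 0.0209% of its counts in all. Only 2 of these genes were among the genes tested, and results are given below with and without this library. Mitochondrial genes took 14.5 to 18.1% of counts at 500 µg/mL and 14.8 to 16.8% at 20 µg/mL, so the ranges overlapped.

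Cells that divide make the proteins of DNA replication before and during S phase under E2F factors, and those of mitosis later, from promoters that often hold CCAAT boxes and the element called CHR, through which the DREAM and MuvB complexes act. The enzymes of cholesterol synthesis are switched on together by SREBP2 when sterols in the endoplasmic reticulum are low. Heme oxygenase and the glutathione genes are induced by NRF2 when electrophiles or heme accumulate.

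Between 500 and 20 µg/mL, 275 of 17765 genes tested passed the threshold (edgeR's quasi-likelihood test, Benjamini-Hochberg adjusted p under 0.05, 1.55% of genes tested). Of these, 189 rose (1.06%) and 86 fell (0.484%). The changes were small. The median size was 0.25 on the log2 scale for genes that rose (1.19-fold) and 0.25 for genes that fell, and 10 genes passed the threshold with a change of at least 1.5-fold. Of the 189 genes that rose, 51 were on the G1/S or G2/M lists, and of the 86 that fell, none were. These lists hold 42 and 54 of the 17765 genes tested, so finding none among 86 genes says little. In 188 of the 189 genes that rose, all 3 libraries at 500 µg/mL lay above all 3 at 20 µg/mL, and in 83 of the 86 that fell all lay below. Over all genes tested the groups did not overlap in 18.6%. The called genes were picked by a test on these same libraries, which by itself favours groups that do not overlap, so these counts add no separate support. Fitting only the 6 libraries compared, with the spread taken from them alone, gave 123 genes, 108 of them among the 275. Leaving out the 20 µg/mL replicate 3 gave 185 genes, 167 of them among the 275. Leaving out 1 of the 6 libraries in turn gave 142 to 196 genes, with 142 without the 500 µg/mL replicate 1, 170 without the 20 µg/mL replicate 1 and 167 without the 500 µg/mL replicate 3. Without both the 20 µg/mL replicates 1 and 3, which leaves 1 library at that dose, 18 genes passed, all of them among the 275. In bulk RNA, more cells in a phase of the cycle and more RNA per cell cannot be told apart.

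**Figure D1:**
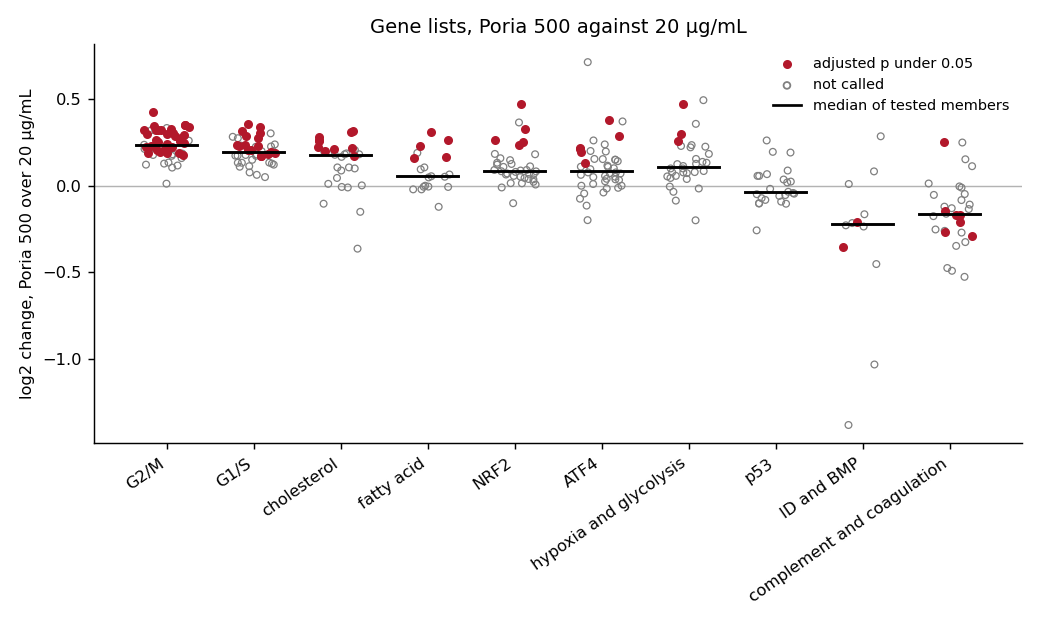
Log2 change between 500 and 20 µg/mL (vertical axis) of every tested member of 10 gene lists (horizontal axis); filled points passed the threshold, open points did not, and lines are list medians. All 54 G2/M and all 42 G1/S members lie above 0, with medians of 0.24 and 0.20, while 26 of 31 complement and coagulation members lie below 0.

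The 160 bases before the start of 5 genes that rose are shown as examples of the short elements counted below. Sequences are RefSeq's on GRCh38.p14, read 5′ to 3′ on the strand of the gene. The start is RefSeq's, which differs from the bounds of the gene given further on from GENCODE, so the windows of PRC1, CDC20, CCNB1 and DHCR7 lie partly or wholly inside those bounds. Capitals mark every match, on either strand, to the box CCAAT, the CHR letters TTTGAA or the E2F letters TTCCCGCC or TTTGGCGC.
PRC1 (chr15:90994536-90994695, minus strand): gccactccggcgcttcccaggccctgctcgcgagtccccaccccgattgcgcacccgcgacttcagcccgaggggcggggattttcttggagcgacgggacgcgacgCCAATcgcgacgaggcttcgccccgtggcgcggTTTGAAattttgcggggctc
CDC20 (chr1:43358821-43358980, plus strand): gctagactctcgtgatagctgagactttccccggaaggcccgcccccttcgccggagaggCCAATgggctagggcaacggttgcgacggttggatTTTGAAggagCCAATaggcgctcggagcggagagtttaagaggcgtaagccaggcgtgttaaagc
CCNB1 (chr5:69166990-69167149, plus strand): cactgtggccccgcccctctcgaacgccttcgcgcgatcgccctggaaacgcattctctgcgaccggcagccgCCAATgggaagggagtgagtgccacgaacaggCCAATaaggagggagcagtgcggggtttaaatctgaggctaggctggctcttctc
MCM6 (chr2:135876444-135876603, minus strand): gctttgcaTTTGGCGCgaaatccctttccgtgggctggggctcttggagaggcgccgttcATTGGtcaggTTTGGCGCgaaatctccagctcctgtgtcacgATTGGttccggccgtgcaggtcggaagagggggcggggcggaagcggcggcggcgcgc
DHCR7 (chr11:71448394-71448553, minus strand): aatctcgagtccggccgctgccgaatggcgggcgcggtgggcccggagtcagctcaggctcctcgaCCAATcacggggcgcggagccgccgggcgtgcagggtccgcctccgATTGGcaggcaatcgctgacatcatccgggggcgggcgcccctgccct

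All 5 stretches hold a CCAAT box. The CHR letters stand in the mitotic genes PRC1 and CDC20, and the E2F letters in the replication gene MCM6, in both copies as TTTGGCGC. Windows of 250 bases before to 50 after the start were searched for these letters in all genes with an entry in the RefSeq table. The CHR letters were in 30 of 47 G2/M windows (63.8%), 1 of 36 G1/S windows (2.8%) and 10.0% of the 12036 windows of genes tested. The E2F letters were in 18 of 36 G1/S windows, 4 of 47 G2/M windows (8.5%) and 5.9% of the windows of genes tested. A CCAAT box was in 34 of 47 G2/M windows (72.3%), 20 of 36 G1/S windows (55.6%), 17 of 24 cholesterol windows (70.8%) and 36.3% of those of genes tested. The sterol element TCACNCCAC was in 1 of 24 cholesterol windows (4.2%) and in 1.1% of those of genes tested. Among called members, the CHR letters were in 18 of 29 G2/M windows (62.1%) and the E2F letters in 6 of 14 G1/S windows (42.9%). A CCAAT box was in 23 of 29 called G2/M, 9 of 14 called G1/S and 6 of 6 called cholesterol windows. The sterol element was in 0 of those 6. These are counts of letters, not of bound factors, and the part of these elements in the changes was not tested.

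Genes of mitosis rose most widely. Of the 54 genes on the G2/M list, 34 rose and none fell, all 54 had a change above 0, and the median was 0.24, against a median of 0.00 over all genes tested. By role, 11 of 12 cyclins and kinases rose, 11 of 16 spindle and cytokinesis genes, 8 of 16 chromosome and centromere genes, and 4 of 10 genes of anaphase and its control. Without the 20 µg/mL replicate 3, 23 of the 54 rose, without the 20 µg/mL replicate 1, 25 did, and without both, 4; fitting only the 6 libraries compared gave 22. The median was 0.225 without replicate 3, 0.254 without replicate 1 and 0.233 without both. Leaving out 1 of the 6 libraries in turn gave 21 to 25.

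PRC1 (ENSG00000198901, chromosome 15, 90966038 to 90995629 on GRCh38), which bundles the microtubules of the central spindle, had the smallest adjusted p among the list members. It stood at 152, 154 and 150 CPM (counts scaled to a common library size by TMM) in the 500 µg/mL libraries, against 121, 125 and 124 CPM in the 20 µg/mL libraries. The groups lay well apart, and the 100 µg/mL libraries, at 136, 135 and 136 CPM, stood between them. The change was 0.31 ± 0.04 (log2 ± SE; edgeR adjusted p = 1.55e-06). CDC20 (ENSG00000117399, chromosome 1, 43358955 to 43363203), an activator of the anaphase-promoting complex, stood at 88.0, 91.0 and 95.0 CPM at 500 µg/mL, against 68.6, 76.35 and 74.0 CPM at 20 µg/mL. The groups did not overlap, and the change was 0.32 ± 0.04 (edgeR adjusted p = 1.41e-05). CCNB1 (ENSG00000134057, chromosome 5, 69167010 to 69178245), the cyclin that drives entry into mitosis, stood at 103, 94.5 and 96.05 CPM at 500 µg/mL, against 73.2, 78.6 and 78.8 CPM at 20 µg/mL. Its change was 0.35 ± 0.06, and again no library of one dose reached the other.

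The mitotic kinases AURKA (0.29), AURKB (0.32), PLK1 (0.32), BUB1 (0.28), BUB1B (0.26) and NEK2 (0.26) rose, all quoted as log2 changes of 500 over 20 µg/mL. So did the transcription factor FOXM1, which drives many of the genes of this list, by 0.30 to 167, 167 and 173 CPM at 500 µg/mL, against 136, 139 and 138 CPM at 20 µg/mL. Among chromosome genes the centromeric histone CENPA rose by 0.35 and the condensin subunits NCAPH by 0.30 and NCAPD2 by 0.21. Among kinesins and cytokinesis genes on the list, KIF23 (0.27), RACGAP1 (0.24) and KIF4A (0.19) rose beside PRC1. CDK1, the partner kinase of cyclin B, rose by 0.23 ± 0.06, with 58.0, 56.4 and 58.8 CPM at 500 µg/mL, against 48.5, 49.99 and 49.0 CPM at 20 µg/mL. MKI67, the usual proliferation marker, did not pass the threshold (0.20 ± 0.09, edgeR adjusted p = 0.366), and its 20 µg/mL replicate 1, at 446 CPM, was nearly level with the 500 µg/mL libraries, at 447 to 488 CPM. PLK1, NEK2, CENPA, KIF4A and CDK1 each lost the threshold when 1 of the 6 libraries was left out, with adjusted p up to 0.0548, 0.0507, 0.12, 0.21 and 0.114, while the other mitotic genes named with a rise kept it in all 6 of those fits.

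Among genes at 5 CPM or more, several of the largest rises were also genes of mitosis, sister chromatid cohesion or the centrosome. Of these, SPC25 is on the G2/M list and the others are not. GTSE1 (chromosome 22, 46296741 to 46330810), a microtubule-binding protein made in G2, rose by 0.39 ± 0.05 to 38.0, 36.7 and 38.8 CPM at 500 µg/mL, against 29.2, 29.6 and 28.0 CPM at 20 µg/mL (edgeR adjusted p = 6.52e-06). HJURP, the chaperone that loads CENPA, rose by 0.38 and CDCA5, which protects cohesin on sister chromatids, by 0.36. SPC25, a subunit of the NDC80 complex of the kinetochore, rose by 0.43 ± 0.11, but its groups were less evenly apart, at 9.09, 10.0 and 10.3 CPM at 500 µg/mL against 6.77, 6.95 and 8.25 CPM at 20 µg/mL, and without 1 library its adjusted p reached 0.135. The centrosomal gene CEP128 rose by 0.42 and DSCC1, a subunit of a clamp loader used in sister chromatid cohesion, by 0.37; the adjusted p of DSCC1 reached 0.208 without 1 library. The pseudogene CDC20P1 rose by 0.53, but it is a copy of CDC20, and reads of CDC20 may have been assigned to it; the pair together had 95.1 CPM of the library total or more at 500 µg/mL, against 74.0 to 84.7 CPM of it at 20 µg/mL.

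Genes of DNA replication rose too. Of the 42 genes on the G1/S list, 17 rose, none fell, and all 42 had a change above 0, with a median of 0.20. Of the 7 MCM genes 6 rose, counting MCM10, which is not a subunit of the replicative helicase and reached an adjusted p of 0.171 without 1 library; among the helicase subunits MCM3 (0.13, edgeR adjusted p = 0.149) did not pass. Of the 6 nucleotide supply genes 5 rose, of the 9 origin licensing and loading genes 3, of the 12 polymerase and clamp genes 3, and of the 8 cyclins and E2F factors 0. Leaving out 1 of the 6 libraries gave 10 to 13 rises on the list, and leaving out the 20 µg/mL replicates 1 and 3 together gave 2, with a median of 0.20. Fitting only the 6 libraries compared gave 8 rises, at the same median.

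MCM5 (ENSG00000100297, chromosome 22, 35400063 to 35425430) changed most among the MCM genes. It stood at 89.8, 91.0 and 91.0 CPM at 500 µg/mL, against 68.2, 71.5 and 72.6 CPM at 20 µg/mL, and rose by 0.36 ± 0.05 (edgeR adjusted p = 4.7e-05). MCM2 rose by 0.29, MCM7 by 0.28, MCM6 by 0.19 and MCM4 by 0.18, each with groups that did not overlap; MCM6 and MCM4 lost the threshold when only the 6 libraries compared were fitted. The loading factor CDC6 rose by 0.30 ± 0.05, to 63.3, 61.5 and 59.95 CPM at 500 µg/mL, against 52.0, 50.8 and 46.8 CPM at 20 µg/mL. Among the enzymes that supply deoxynucleotides, RRM2 rose by 0.24, TK1 by 0.24, TYMS by 0.19 and RRM1 by 0.17. Of these 4, only RRM2 kept the threshold in all 6 fits without 1 library, with adjusted p of the others reaching 0.0858 to 0.247. CDKN1A, the p53-driven inhibitor of cyclin-dependent kinases, stood at 132, 137 and 136 CPM at 500 µg/mL, against 122, 140 and 138 CPM at 20 µg/mL; the groups overlapped (0.02 ± 0.05, edgeR adjusted p = 0.932). None of the 24 p53 targets passed the threshold, at a median of -0.04.

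**Figure D2:**
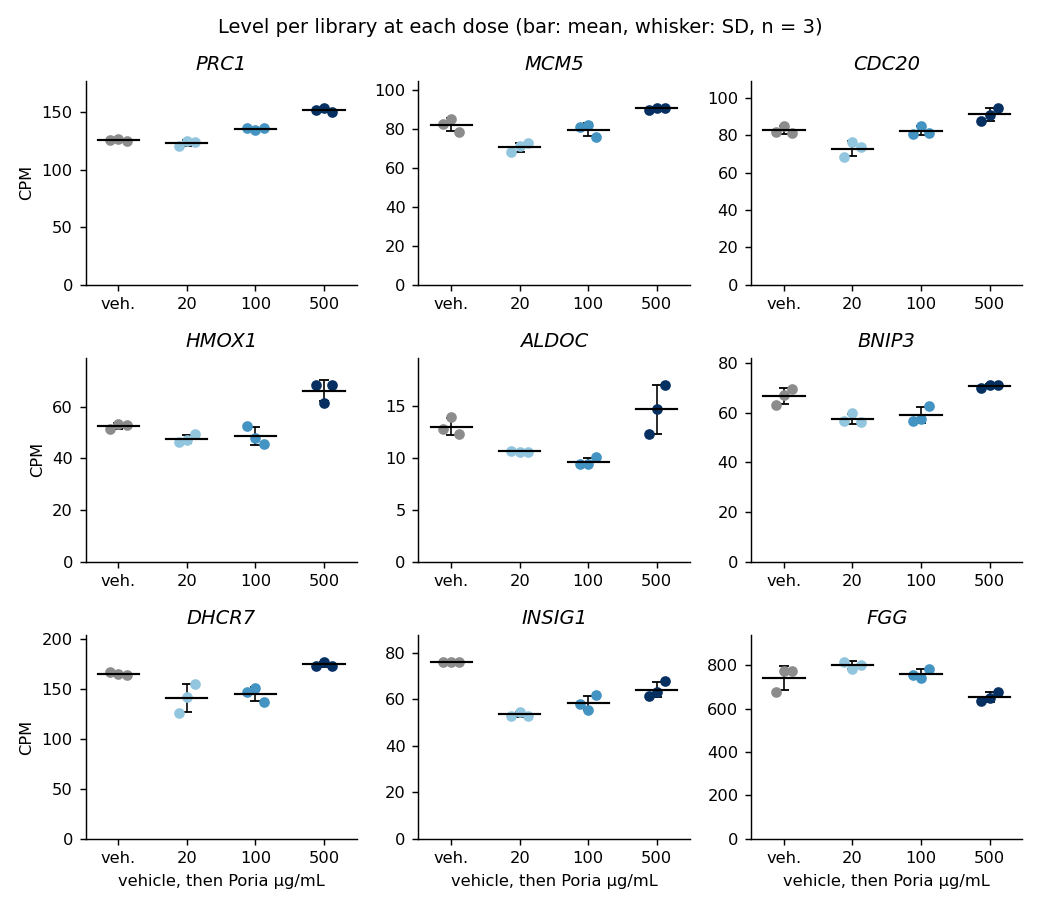
Level in CPM (vertical axis, starting at 0) of 9 genes in each library of the vehicle and of Poria at 20, 100 and 500 µg/mL (horizontal axis); points are libraries, bars means and whiskers SD (n = 3). The means of PRC1, MCM5 and CDC20 are higher at 100 than at 20 µg/mL and higher again at 500 µg/mL, HMOX1, ALDOC, BNIP3 and DHCR7 differ mainly between 100 and 500 µg/mL, INSIG1 stays below the vehicle at all 3 doses, and FGG is lowest at 500 µg/mL.

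Cholesterol genes formed the second group. Of 31 genes on the list, 30 were tested, 10 rose and none fell; 25 had a change above 0 and the median was 0.18. Members of the arm from squalene to sterol were higher throughout, with 5 of 12 rising and all 12 above 0, and 3 of 9 mevalonate genes and 2 of 9 tested genes of transport and sterol sensing rose. Leaving out 1 of the 6 libraries gave 7 to 10 rises, and leaving out the 20 µg/mL replicates 1 and 3 together gave 1.

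DHCR7 (ENSG00000172893, chromosome 11, 71428193 to 71452868), the last enzyme of one branch of cholesterol synthesis, stood at 173, 177 and 173 CPM at 500 µg/mL, against 126, 141 and 155 CPM at 20 µg/mL. The 20 µg/mL libraries were widely spread and all below the 500 µg/mL libraries, and the change was 0.31 ± 0.06 (edgeR adjusted p = 0.00046). SQLE, the squalene epoxidase and a rate-limiting step, stood at 180, 176 and 176 CPM at 500 µg/mL, against 156, 149 and 152 CPM at 20 µg/mL, a rise of 0.22 ± 0.04. FDFT1 rose by 0.22 and NSDHL by 0.28 in the same arm, and MVD by 0.32, FDPS by 0.20 and ACAT2 by 0.21 in the mevalonate arm. MVD, ACAT2 and EBP (0.17) lost the threshold in at least 1 of the fits without a library, with adjusted p up to 0.063, 0.159 and 0.243.

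Genes of transport and sterol sensing did not move as a group. Of 9 tested, 5 were above 0 and 4 below, at a median of 0.002. INSIG1, which holds SREBP in the endoplasmic reticulum and is itself a target of SREBP, stood at 61.5, 63.0 and 67.8 CPM at 500 µg/mL, against 52.8, 54.7 and 52.8 CPM at 20 µg/mL (0.26 ± 0.04). HMGCS1, the first committed enzyme, lay just outside the threshold (0.18 ± 0.05, edgeR adjusted p = 0.0532), with 236.5, 223 and 223 CPM at 500 µg/mL against 216, 192.5 and 192 CPM at 20 µg/mL. Of 19 tested fatty acid genes 5 rose, among them the desaturases FADS1 (0.31), SCD (0.27) and FADS2 (0.23), and the list median was 0.06. SCD stood at 1113, 1104 and 1098 CPM at 500 µg/mL, against 913, 914 and 931 CPM at 20 µg/mL.

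HMOX1 (ENSG00000100292, chromosome 22, 35380361 to 35394214), the heme oxygenase, had one of the largest rises among genes at 5 CPM or more. It stood at 68.5, 61.5 and 68.4 CPM at 500 µg/mL, against 46.5, 47.05 and 49.3 CPM at 20 µg/mL, and rose by 0.47 ± 0.08 (edgeR adjusted p = 0.00015). The 100 µg/mL libraries, at 52.5, 47.8 and 45.5 CPM, overlapped those at 20 µg/mL. On the NRF2 list 5 of 36 genes rose and none fell, 34 of 36 were above 0, and the median was 0.09. The other 4 were OSGIN1 (0.33), GCLM (0.27), the regulatory subunit of glutathione synthesis, SRXN1 (0.25), which reduces peroxiredoxins, and ALDH3A1 (0.24), an aldehyde dehydrogenase abundant in this line. NQO1, a classical NRF2 target, did not pass (0.08, adjusted p = 0.485 by the edgeR test), and OSGIN1 reached 0.0737 without 1 library.

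Smaller numbers of genes rose on other stress and metabolic lists. Of 44 ATF4 targets 6 rose and none fell (median 0.09): the secreted glycoprotein STC2, by 0.38 ± 0.06 to 32.2, 32.1 and 32.5 CPM at 500 µg/mL, against 23.8, 26.1 and 24.3 CPM at 20 µg/mL, PHGDH, the first enzyme of serine synthesis, by 0.29, and TRIB3, MTHFD2, SHMT2 and YARS1 by 0.13 to 0.22. The last 4 lost the threshold without 1 library, with adjusted p up to 0.211, 0.145, 0.141 and 0.347. ASNS (0.15) and DDIT3 (-0.12), the usual readouts of this response, did not pass, with adjusted p of 0.163 and 0.738 by the edgeR test. The amino acid transporters SLC7A5 (0.34) and SLC7A1 (0.21) rose among 13 tested, and without 1 library SLC7A1 reached an adjusted p of 0.234. CYP1B1, a target of the aryl hydrocarbon receptor, rose by 0.26 to 147, 142 and 146.5 CPM at 500 µg/mL, against 123, 120 and 121 CPM at 20 µg/mL, while CYP1A1, at 0.5195 to 0.711 CPM at 500 µg/mL against 0.1225 to 0.428 CPM at 20 µg/mL, was close to the lowest levels tested and did not pass (1.10 ± 0.44, edgeR adjusted p = 0.25). Of 32 hypoxia and glycolysis genes 3 rose, with 27 above 0 and a median of 0.11: the aldolase ALDOC (0.47), the mitophagy receptor BNIP3 (0.30) and the phosphofructokinase PFKP (0.26). ALDOC stood at 12.3, 14.7 and 17.0 CPM at 500 µg/mL, the widest spread among these genes, against 10.7, 10.6 and 10.6 CPM at 20 µg/mL, and its adjusted p reached 0.172 without 1 library. ANGPTL4, an inhibitor of lipoprotein lipase, rose by 0.38, to 49.0, 52.6 and 53.9 CPM at 500 µg/mL, against 34.0, 41.9 and 44.1 CPM at 20 µg/mL, with 0.0608 as its highest adjusted p without 1 library.

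The 86 genes that fell were more scattered. The widest group was that of complement and coagulation, where 6 of 31 tested genes fell, 1 rose, 26 were below 0 and the median was -0.16. FGG (ENSG00000171557, chromosome 4, 154604134 to 154612967), the gamma chain of fibrinogen, stood at 633, 646.5 and 678 CPM at 500 µg/mL, against 816, 781 and 802 CPM at 20 µg/mL, and fell by 0.29 on the log2 scale (SE 0.06, edgeR adjusted p = 0.00113). The other fibrinogen chains FGA and FGB fell by 0.17 each, the complement gene C5 fell by 0.21 and the anticoagulant PROS1 by 0.15. Unlike FGG, the fibrinogen chains FGA and FGB, C5 and PROS1 each lost the threshold without 1 library, with adjusted p up to 0.137 to 0.264, and 1 to 4 members of the list fell in those fits. Fitting only the 6 libraries compared, 3 fell. Hepatocyte markers, whose products are also secreted to blood, were lower beside them: their summed level was 33.7 to 34.1 CPM at 500 µg/mL and 36.2 to 40.0 CPM at 20 µg/mL, 6 of 7 tested were below 0, and APOA2 was at 0 throughout. Fibroblast markers were lower as well, with a summed level of 14.7 to 16.7 CPM at 500 µg/mL and 17.1 to 20.2 CPM at 20 µg/mL, 4 of 6 tested below 0, a median of -0.17, and PDGFRA at 0 in all 500 µg/mL libraries. None of the 7 hepatocyte or 6 fibroblast markers passed the threshold, and the part of these markers in the falls was not tested.

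CYP3A5 (chromosome 7, 99648194 to 99680026), a drug-oxidising enzyme and the only called gene among 8 tested targets of PXR and CAR, stood at 15.1, 15.97 and 16.3 CPM at 500 µg/mL, against 22.9, 21.2 and 20.1 CPM at 20 µg/mL. It fell by 0.44 (SE 0.07, edgeR adjusted p = 0.00025). DKK1 (chromosome 10, 52314296 to 52318042), a secreted inhibitor of WNT signalling, fell by 0.43, to 57.5, 52.4 and 53.7 CPM at 500 µg/mL, against 64.9, 77.8 and 76.9 CPM at 20 µg/mL. ANKRD1, another gene of the YAP and TEAD list, fell by 0.35. That list did not move as a whole, with 7 of 18 members above 0, 11 below and a median of -0.025. ID1 and ID2, inhibitors of basic helix-loop-helix factors and targets of BMP signalling, fell by 0.21 and 0.36, although the ID2 groups overlapped, with ID3 just outside the threshold (-0.24, edgeR adjusted p = 0.0503), and 9 of 12 members of their list were below 0 at a median of -0.22. The remaining large falls at 5 CPM or more were PTPRN2 (-0.49), WDR5B (-0.42), MPZL2 (-0.40), PDZK1 (-0.39), PDGFD (-0.37), ABI3BP (-0.35) and SCAPER (-0.35). CYP3A5 and DKK1 kept the threshold in each fit without 1 library; the others named here lost it in at least 1 of them, with adjusted p up to 0.12 for PTPRN2 and 0.136 to 0.281 for the rest with an initial call.

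The falls that were largest by size were in genes with few reads, or with reads that may belong to another gene. TUBA1B-AS1 (chromosome 12, 49127782 to 49147869), antisense to the tubulin gene TUBA1B, stood at 0.132, 0.2165 and 0.167 CPM at 500 µg/mL and 80.6, 0.0368 and 0.0817 CPM at 20 µg/mL, so its call rested on the 20 µg/mL replicate 1. Without that library its change was 1.49 in the opposite direction, and since the strand setting of the counting is not given, its reads cannot be told apart from those of TUBA1B. H4C14 (chromosome 1, 149832659 to 149839767), a histone H4 gene, was at 2.08, 1.95 and 1.34 CPM at 500 µg/mL and 6.46, 6.87 and 4.29 CPM at 20 µg/mL (log2 change -1.72 ± 0.39, edgeR adjusted p = 0.0104). Its neighbour H4C15 encodes the same histone, and the pair together had 6.75, 7.34 and 6.99 CPM of the library total at 500 µg/mL, against 7.67, 9.31 and 8.73 CPM of it at 20 µg/mL, a far smaller gap, so the split of reads between the copies is uncertain. REXO1L1P, chosen after its values were seen, was at 0, 0 and 0.0418 CPM at 500 µg/mL and 0.0389, 0 and 4.94 CPM at 20 µg/mL, and rested on the replicate 3 that had the extra genes.

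The 100 µg/mL libraries were set against both other doses. At 100 against 20 µg/mL no gene passed the threshold in edgeR (0%), with 767 genes at an unadjusted p under 0.05, and DESeq2 also called 0. At 500 against 100 µg/mL, 23 genes did (0.129%), 16 higher (0.0901%) and 7 lower (0.0394%), of which 21 were also among the 275, in the same direction; these comparisons share the 500 µg/mL libraries. Of the 189 genes that rose between 500 and 20 µg/mL, the 100 µg/mL mean lay between the others in 184, with a median log2 step of 0.12 below 100 µg/mL and 0.13 above it. Of the 86 that fell it lay between in 81, with median steps of -0.09 and -0.15. These genes were picked by their gap between 500 and 20 µg/mL, which by itself favours a 100 µg/mL mean in between. The share over all genes tested was not counted, so these counts do not place the difference on the dose scale.

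Gene groups differed in where the step lay, as a description. The G2/M median was 0.14 at 100 over 20 µg/mL and 0.11 at 500 over 100 µg/mL, and the G1/S medians were 0.11 and 0.09. The cholesterol medians were 0.04 and 0.12, and those of hypoxia and glycolysis 0.00 and 0.10. HMOX1 differed by 0.03 below 100 µg/mL and 0.44 above it, BNIP3 by 0.04 and 0.26, DHCR7 by 0.04 and 0.27, FDPS by -0.01 and 0.21, and ALDOC by -0.14 and 0.61. CCNA2, the S phase and G2 cyclin, differed by 0.18 and 0.05, and GINS1, a subunit of the active helicase, by 0.21 and -0.01. Whether the upper step differed from the lower one was tested for every gene: no gene passed the threshold in edgeR (0%), 564 were at an unadjusted p under 0.05, and DESeq2 called 1.

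Both doses were then set against the vehicle. At 500 µg/mL 2895 genes differed from the vehicle (16.3%) and at 20 µg/mL 3472 did (19.5%), with 3834 at 100 µg/mL (21.6%; 12.4% higher and 9.2% lower); these comparisons share the vehicle libraries, and because Poria and vehicle libraries carry different sample codes, extract and code cannot be told apart in them. Of the 189 genes that rose between the doses, 125 lay above the vehicle at 500 µg/mL and below it at 20 µg/mL, 49 above it at both and 15 below it at both. Of the 86 that fell, 48 lay below the vehicle at 500 µg/mL and above it at 20 µg/mL. Picking genes by their gap between 500 and 20 µg/mL by itself favours doses on opposite sides of the vehicle. The same share over all genes tested was not counted, so these counts do not show opposite effects of the doses. On the G2/M list 39 of 54 genes were called higher than the vehicle at 500 µg/mL (9.88% of all genes were) and none lower (6.41% were), and at 20 µg/mL 4 were called higher (10.9% of all genes were) and 8 lower (8.65% were). Median G2/M changes from the vehicle were -0.01 at 20 µg/mL, 0.12 at 100 µg/mL and 0.24 at 500 µg/mL, and those of G1/S -0.06, 0.05 and 0.14.

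Sterol genes sat differently against the vehicle. On the cholesterol list 3 of 30 genes were called higher and 2 lower at 500 µg/mL, near the shares over all genes of 9.88% and 6.41%. At 20 µg/mL 0 were called higher and 11 lower, beside 10.9% and 8.65% of all genes. The list medians against the vehicle were -0.11 at 20 µg/mL, -0.11 at 100 µg/mL and 0.01 at 500 µg/mL. INSIG1 was at 75.8, 75.8 and 76.0 CPM in the vehicle libraries, above every Poria library, and its change from the vehicle was -0.24 at 500 µg/mL and -0.51 at 20 µg/mL. MVD changed by -0.11 at 500 µg/mL and -0.42 at 20 µg/mL and NSDHL by -0.02 and -0.30. HMOX1 was 0.33 above the vehicle at 500 µg/mL and 0.14 below it at 20 µg/mL. GCLM was above it at both doses, by 0.49 at 500 µg/mL and 0.22 at 20 µg/mL, and ID2 below it at both, by 0.86 at 500 µg/mL and 0.50 at 20 µg/mL (log2 changes of -0.86 and -0.50). OSGIN1 lay below it at both doses as well, at -0.14 and -0.47.

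**Figure D3:**
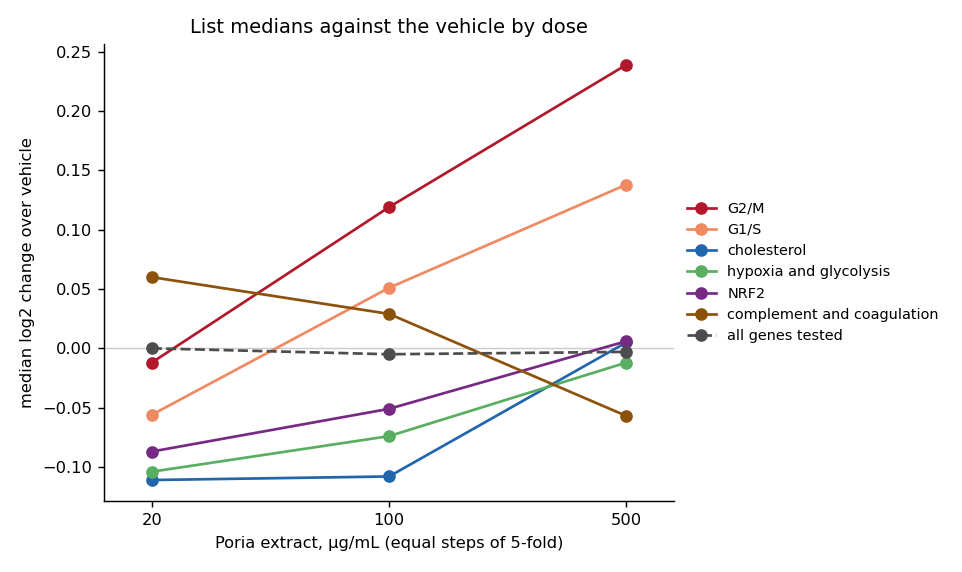
Median log2 change over the vehicle (vertical axis) of 6 gene lists and of all genes tested (dashed) at 20, 100 and 500 µg/mL of Poria extract (horizontal axis). The G2/M median is -0.01, 0.12 and 0.24 and the cholesterol median -0.11, -0.11 and 0.01, while all genes tested stay at 0.00.

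The change of 500 over 20 µg/mL with Poria was set against that with other extracts by interaction tests. Atractylodis, an ethanol extract whose libraries carry the same set code as Poria, changed 37 genes between its doses (0.208%). In 13 genes the Poria change differed from the Atractylodis change (0.0732% of genes tested), 10 of them higher for Poria (0.0563%) and 3 lower (0.0169%). Of the 12 described here, 6 are genes of cholesterol synthesis or its control (INSIG1, SQLE, FDFT1, HMGCS1, FDPS and TMEM97, which encodes a sterol-binding membrane protein) and 3 are mitotic (GTSE1, PRC1 and CDC20). MATN2, TMEM97 and CYP24A1 are outside the rule for named genes and are given because they passed this test. SQLE changed by 0.22 ± 0.04 with Poria and -0.14 ± 0.04 with Atractylodis, a difference of 0.36 ± 0.06 (edgeR adjusted p = 0.000771). For INSIG1 the changes were 0.26 and -0.11, and for HMGCS1 0.18 and -0.21. GTSE1 changed by 0.39 with Poria and -0.05 with Atractylodis, and PRC1 by 0.31 and 0.02. The other direction held for CYP24A1, the enzyme that breaks down active vitamin D (-0.29 with Poria and 0.28 with Atractylodis), ID1 (-0.21 and 0.18) and MATN2, an extracellular matrix protein (-0.33 and 0.13).

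**Figure D4:**
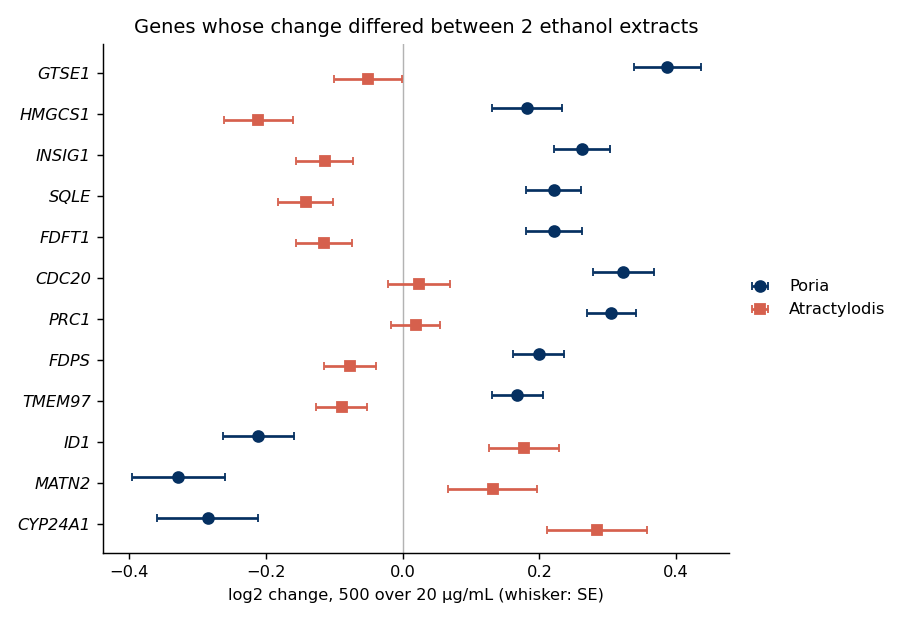
Log2 change of 500 over 20 µg/mL (horizontal axis) of 12 of the 13 genes whose change differed between Poria (circles) and Atractylodis (squares); whiskers are SE. The sterol genes lie above 0 with Poria and below 0 with Atractylodis, and CYP24A1, ID1 and MATN2 the reverse.

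Over whole lists, the median of the difference Poria minus Atractylodis was 0.22 for cholesterol (27 of 30 above 0, 6 called higher), 0.20 for G2/M (53 of 54 above 0, 2 called) and 0.14 for G1/S (42 of 42 above 0, none called), beside 0.00 over all genes tested. In the 12 fits without 1 of the libraries of both extracts, 8 to 18 genes differed. GTSE1, SQLE, FDFT1, HMGCS1, INSIG1, PRC1, CYP24A1 and ID1 passed in all 12, FDPS in 11, TMEM97 in 8, MATN2 in 5 and CDC20 in 4. Those fits still took the spread from the other libraries of the series as well. Fitting only the compared groups, 3 genes differed, all of them among the 13.

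Against Ginseng and Sibjeondaebo-tang few genes differed. Ginseng changed 214 genes between its doses (1.2%; 0.552% higher and 0.653% lower), and for 2 genes the Poria change differed from it, both lower for Poria (0.0113%): NID1, a basement membrane protein (-0.09 with Poria and 0.60 with Ginseng), and ID3 (-0.24 with Poria and 0.25 with Ginseng). Sibjeondaebo-tang changed 672 genes (3.78%, with 2.35% higher and 1.44% lower). For 3 genes the Poria change differed from it (0.0169%), 1 higher (0.00563%) and 2 lower (0.0113%) for Poria. They were IGFL2-AS1 (-0.04 with Poria and -0.90 with Sibjeondaebo-tang), TUBA1B-AS1 (-7.245 and 8.182) and H4C14. The Poria change of TUBA1B-AS1 rests on 1 library, and reads of H4C14 may be split between copies. NID1, ID3 and IGFL2-AS1 are given because they passed this test. Of the Ginseng pair, NID1 passed in 3 and ID3 in 2 of 12 fits without 1 library, while IGFL2-AS1 passed in all 12. The median change of 500 over 20 µg/mL on the G2/M list was 0.24 with Poria, 0.16 with Ginseng and 0.30 with Sibjeondaebo-tang. On the cholesterol list it was 0.18 with Poria, 0.24 with Ginseng and 0.00 with Sibjeondaebo-tang. In the test of the difference, no G2/M, G1/S or cholesterol member passed the threshold against either extract.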

How the data were processed

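RNA of A549 cells was sequenced after extract or vehicle treatment (100-base paired reads, RNA integrity number over 7, a directional mRNA kit, per the labels' protocols). Per the submitters' processing notes, FastQC 0.11.9, Trim Galore 0.6.5, STAR 2.7.3a and RSEM 1.3.3 were used with GRCh38; the annotation release and the strand setting used for counting: not given in the sources used here. Values are RSEM's expected counts by gene as the authors deposited them, for 60675 identifiers in 270 columns, of which 60 were used and 210 left aside. Some 76.0% of nonzero values were whole within 1e-09, and all were rounded to whole numbers before fitting. Symbols came from the gene name tables and positions from GENCODE 29.

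All 60 libraries (18602484 to 29764358 counts) entered one edgeR 4.0.16 model (R 4.3.3) with 1 mean per group, filterByExpr (17765 genes), TMM scaling and quasi-likelihood tests, leaving 35 residual degrees of freedom; the common biological coefficient of variation was 5.59%. P-values were adjusted by Benjamini-Hochberg over all genes tested and called under 0.05. An SE is the size of the log2 change over the root of its F statistic; it understates the uncertainty of genes with few counts. No pair of Poria replicates lay within sampling noise (chi-square per degree of freedom 3.59 to 12.9).

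The comparisons, gene lists (39 lists, 845 entries, 1 unmatched) and named genes were chosen with earlier results of these data known. Named genes are the 12 largest rises and falls called at a mean of 5 CPM or more in either group, called list members, and, among others, HMOX1, HMGCS1, CDKN1A, CYP1A1, CYP1B1, DDIT3, ASNS, CXCL8 and MKI67; only part is printed, and some genes are not reported here. Fits were tested on simulated data. Alternatives were DESeq2 1.42.0, RLE size factors, 2 other filters on low counts, library sizes from tested genes, fewer libraries in the fit, a replicate block and leaving out each library; the test of unequal dose steps, a limit of 5 CPM and leaving out the 20 µg/mL replicates 1 and 3 together were added after seeing the data.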

Additional observations from a re-analysis of the deposited data

Results flagged for a closer look

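The change of 500 over 20 µg/mL differed between extracts by the interaction test (edgeR adjusted p under 0.05) for the genes below. Poria minus Atractylodis gave log2 differences of 0.44 for GTSE1, 0.39 for HMGCS1, 0.38 for INSIG1, 0.36 for SQLE, 0.34 for FDFT1, 0.30 for CDC20, 0.29 for PRC1, 0.28 for FDPS and 0.26 for TMEM97. On the other side it gave -0.57 for CYP24A1, -0.46 for MATN2 and -0.39 for ID1. Poria minus Ginseng gave -0.69 for NID1 and -0.49 for ID3. Poria minus Sibjeondaebo-tang gave 0.86 for IGFL2-AS1, -2.73 for H4C14 and -15.43 for TUBA1B-AS1. In the last, the Poria change of -7.245 rests on 1 library, the 20 µg/mL replicate 1, at 80.6 CPM. The Sibjeondaebo-tang change was 8.182. Without 1 library the difference stayed between -16.025 and -6.699 and passed in 10 of 12 fits.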

How the results depend on the processing

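Of 145 counts of called genes compared across settings, 91 stayed within 1.5 times the count reported. For 500 against 20 µg/mL, RLE size factors gave 282 genes, DESeq2 348, no filter 318, at least 1 CPM in 3 libraries 297, library sizes from tested genes 275, the 9 Poria libraries alone 185 and genes at 5 CPM or more 325. Fitting only the compared groups gave 123, with 3 ATF4 targets and 2 fatty acid genes among the rises, and leaving out the 20 µg/mL replicates 1 and 3 together 18. No filter on low counts gave 60 genes for 100 against 20 µg/mL, 86 for 500 against 100 µg/mL, 53 for the test of unequal steps, and 174, 81 and 95 for Poria minus Atractylodis, Ginseng and Sibjeondaebo-tang. DESeq2 gave 52 for 500 against 100 µg/mL, 1 for unequal steps, and 43, 7 and 7 for the same 3 extracts. The 9 Poria libraries alone gave 1 for 500 against 100 µg/mL, and only the compared groups gave 3 for Atractylodis and 0 for Ginseng. The cause of these shifts was not tested.

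By the labels, same-numbered libraries share a number, and nothing further is stated. Their deviations correlated at 0.079, 0.274 and 0.197 between 500 and 20 µg/mL and at 0.058, 0.149 and 0.159 between 500 and 100 µg/mL. Between 100 and 20 µg/mL the values were 0.081, 0.281 and 0.029. Between 500 and 20 µg/mL, and between 500 and 100 µg/mL, each library correlated best with its own number, a hint from the data and not from the design. Between 100 and 20 µg/mL, the 100 µg/mL replicate 3 correlated better with the 20 µg/mL replicate 1, at 0.169. Whether same-numbered libraries were handled together was not tested. The replicate block gave 457 genes for 500 against 20 µg/mL, 55 for 500 against 100 µg/mL, 1 for 100 against 20 µg/mL, and 36, 9 and 7 for the differences from Atractylodis, Ginseng and Sibjeondaebo-tang. With the replicate block and only the compared groups the first 2 counts were 125 and 84, and on the lists 5 G1/S genes and 24 G2/M genes rose and 2 complement and coagulation genes fell. No filter on low counts gave 10 G1/S rises and 4 complement and coagulation falls.

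Leaving out 1 library at a time gave 142 to 196 genes for 500 against 20 µg/mL, 0 to 2 for 100 against 20 µg/mL, 10 to 13 for 500 against 100 µg/mL, 1907 to 2892 for 500 µg/mL against the vehicle, 2144 to 3409 for 20 µg/mL against the vehicle, 0 for unequal steps, and 8 to 18, 0 to 2 and 1 to 5 for the 3 extracts. Of 146 called genes followed, 63 passed in all 6 of these fits for 500 against 20 µg/mL and 145 kept their direction. TUBA1B-AS1 turned round, to 1.49 without the 20 µg/mL replicate 1 and 2.08 without replicates 1 and 3, and ranged down to -7.84. CDKN1A, not called, was at -0.044 and -0.057 in these fits, and at 0.054 at most without 1 library. Of the 146, 83 lost the threshold in at least 1 fit without a library.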

Other observations

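Other genes also differed between 500 and 20 µg/mL; those given here were picked with their values in view, apart from the ferritin genes, which are on the NRF2 list. The iron exporter SLC40A1 fell by 0.31 on the log2 scale and the transferrin receptor TFRC by 0.24, beside the rise of HMOX1, which frees iron from heme, while the ferritin genes FTH1 (0.18) and FTL (0.16) did not pass the threshold (edgeR adjusted p = 0.316 and 0.503). The collagen chain genes COL4A3 and COL4A4, the laminin gene LAMB2 and the integrin subunit ITGA1 fell, with log2 changes of -0.26, -0.21, -0.175 and -0.27, while NID1, another basement membrane gene, did not pass the threshold (-0.09, edgeR adjusted p = 0.774). ITGA1 stood at 93.9, 96.1 and 96.7 CPM at 500 µg/mL, against 118, 113 and 115 CPM at 20 µg/mL. Summed fibroblast markers were at 14.7 to 16.7 CPM at 500 µg/mL and 17.1 to 20.2 CPM at 20 µg/mL, and their part in these falls was not tested. The beta-tubulin genes TUBB (0.27), TUBB4B (0.27) and TUBB3 (0.22) rose, and TUBA1B (0.27) did not pass the threshold (edgeR adjusted p = 0.081). The receptor ERBB3 fell by 0.33, the gamma-glutamyltransferase GGT5 by 0.33 and TXNIP, a glucose-responsive inhibitor of thioredoxin, by 0.68 at 2.56, 2.86 and 2.89 CPM at 500 µg/mL, against 4.20, 4.34 and 4.82 CPM at 20 µg/mL. ITGA1, SLC40A1, ERBB3, GGT5, TXNIP and TUBB4B kept the threshold in all 6 fits without 1 library, and the other called genes here lost it in at least 1, with adjusted p of 0.0544 to 0.25.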
